A study of Mus musculus with 7 samples.

Results

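The 45 genes described here are nuclear genes for subunits of the mitochondrial respiratory chain and of ATP synthase. They comprise 23 subunits of complex I, 4 of complex II, 6 of complex III, 7 of complex IV and 5 of complex V. They were taken by gene symbol from the 32285 rows of the count tables, each matched 1 row, and all 45 passed the filter on low counts in every fit below. Ndufa4 keeps its historical place among the complex I genes here, although its protein is now known to belong to complex IV.

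Oxidative phosphorylation passes electrons from nutrients to oxygen in steps. Complex I (NADH dehydrogenase) and complex II (succinate dehydrogenase, which is also an enzyme of the tricarboxylic acid cycle) pass electrons to ubiquinone, complex III (the cytochrome bc1 complex) passes them to cytochrome c, and complex IV (cytochrome c oxidase) reduces oxygen with them. Complex V (ATP synthase) uses the proton gradient that results. Complexes I, III, IV and V also contain subunits encoded by mitochondrial DNA, so 2 genomes supply each of them, whereas complex II is wholly nuclear. In macrophages and T cells the balance of this pathway with glycolysis is known to shift with activation, and low oxygen acts on it through hypoxia-inducible factors.

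The cells came from wild-type female mice, 8 to 9 weeks old, that carried GL261 tumours, a mouse glioma line, in the brain. Living leukocytes (CD45-positive, DRAQ7-negative) were sorted from the tumour-bearing left hemisphere at day 21 and profiled by droplet 3′ single-cell RNA-seq, which counts unique molecular identifiers (UMIs). There was 1 library from untreated mice and 2 each from mice given PT2385, ICB, or both. PT2385, a small-molecule antagonist of the oxygen-regulated factor HIF-2α, was given at 10 mg/kg from day 7, and ICB (immune checkpoint blockade) was the pair of antibodies aPD-1 and aTIM-3. All mice carried the tumour. The protocols name a vehicle and isotype antibodies without saying which of them the untreated mice received. Each library pooled 5000 cells from each of 2 mice, so it is called a pool below. For treatment effects within a class, p-values measure the spread between such pools. Classes are compared within libraries, so p-values for class differences measure how much those differences vary between libraries. In both cases a pool hides the spread between its mice. The untreated group has 1 pool, and its spread is taken from the other groups.

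The 7 libraries held 59839154 to 81960504 UMIs and 4847 to 7961 cells after filtering, 40416 in all, and any pair of libraries shared 3 to 17 barcodes. Cells were assigned to classes by counts of detected marker genes, none of them a respiratory chain gene, and 28.1% met no gate (23.01% to 33.7% by library). Class names therefore rest on transcripts. The 7 classes with at least 30 cells in every library were tested: microglia (4650 cells), monocytes/macrophages (15223), conventional dendritic cells (1269), CD8 T cells (1466), conventional CD4 T cells (1410), regulatory T cells (521) and NK cells (1279). The gates are cuts through a range: 565 cells sat at the microglial minimum of 6 of 9 markers and 843 were 1 marker below it, against 1810 and 1539 cells for monocytes/macrophages. Microglial markers summed to a median of 7494 CPM (UMIs per 1000000 UMIs of the class in a library) in microglia. In the other tested classes the medians were at most 164 CPM, and the highest library reached 205 CPM. Monocyte/macrophage markers summed to a median of 20344 CPM in their own class and 1253 CPM in microglia. In the other 5 classes the medians ran from 1613 CPM in NK cells to 5825 CPM in regulatory T cells. Although the sort was for leukocytes, 1338 cells carried choroid plexus epithelial markers.

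Microglia had the lowest nuclear respiratory transcript level of the 7 tested classes in every library. The summed level of the 45 genes in microglia was 4634 ± 489 CPM (SD, n = 7 libraries, as for all class means below). It was 9103 ± 470 CPM in monocytes/macrophages, 8312 ± 513 in conventional dendritic cells, 8797 ± 491 in conventional CD4 T cells, 9037 ± 359 in regulatory T cells, 9160 ± 352 in NK cells and 9963 ± 601 in CD8 T cells. Within a library, monocytes/macrophages stood 1.98 ± 0.219 times above microglia (1.76 to 2.24) and CD8 T cells 2.17 ± 0.233 times (1.96 to 2.56). Regulatory T cells, monocytes/macrophages and NK cells, neighbours in that order, differed by less than the spread between libraries, whereas CD8 T cells lay above NK cells by more than the SD of either class. Counted per cell, the gap to macrophages was wider: 40.03 ± 5.96 UMIs of the 45 genes in a microglial cell against 124 ± 21.3 in a monocyte/macrophage and 94.8 ± 14.6 in a CD8 T cell. Median depth by library ran from 6700 to 9086 UMIs per cell in microglia, from 9136 to 14450 in monocytes/macrophages and from 7287 to 9067 in CD8 T cells. A CPM is a share of a class's RNA, so fewer transcripts of these genes and more of others cannot be told apart in it.

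**Figure D1:**
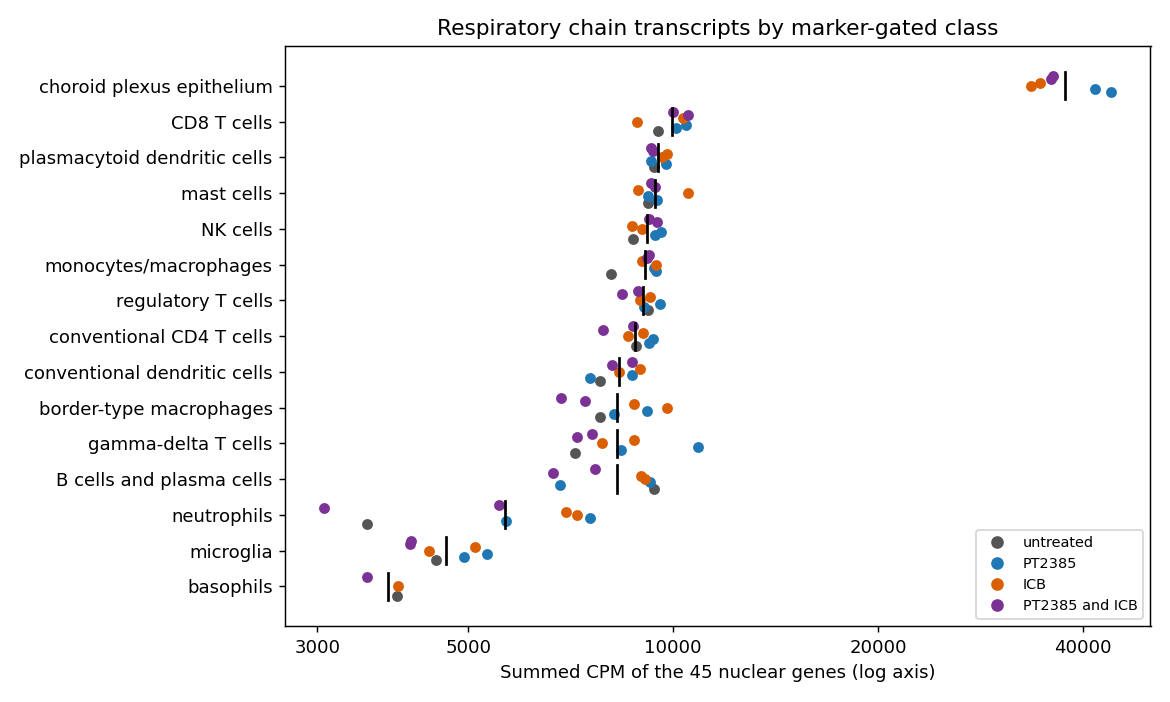
Summed CPM of the 45 nuclear genes (horizontal log axis) in 15 marker-gated classes, 1 point per library coloured by treatment, with a black bar at the class mean. The 7 microglial points lie between 4104 and 5333 CPM, below all points of the other 6 tested classes, and choroid plexus epithelium lies above every other class.

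Gene by gene, microglia had the lowest mean of the 7 classes for 40 of the 45 genes. They were the lowest class in all 7 libraries for 31 genes, whereas 8.28% of the 12340 genes tested showed that. For 27 genes every microglial value lay below every value of the other 6 classes, against 6.11% of all genes tested. These 27 were 12 of 23 genes of complex I, 0 of 4 of complex II, 3 of 6 of complex III, 7 of 7 of complex IV and 5 of 5 of complex V. The 5 exceptions to the lowest mean were Ndufa9, Ndufs1, Ndufs3, Sdha and Sdhc. The 45 are expressed in every class, while the genes tested include many of low level.

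The edgeR quasi-likelihood test, with library as a block and each class set against the mean of the other 6, called 44 of the 45 genes lower in microglia and 0 higher. In the same comparison 38% of all genes tested were called lower and 42.4% higher. The median difference was -0.93 on the log2 scale for the 45 genes and 0.03 for all genes. Directly against monocytes/macrophages, 44 of 45 were again called lower (36.2% of all genes), with a median of -1.23. Complex IV genes stood farthest down, with 7 of 7 called lower and a median of -1.41, followed by complex V (5 of 5, median -0.93), complex I (22 of 23, -0.91), complex III (6 of 6, -0.87) and complex II (4 of 4, -0.41).

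**Figure D2:**
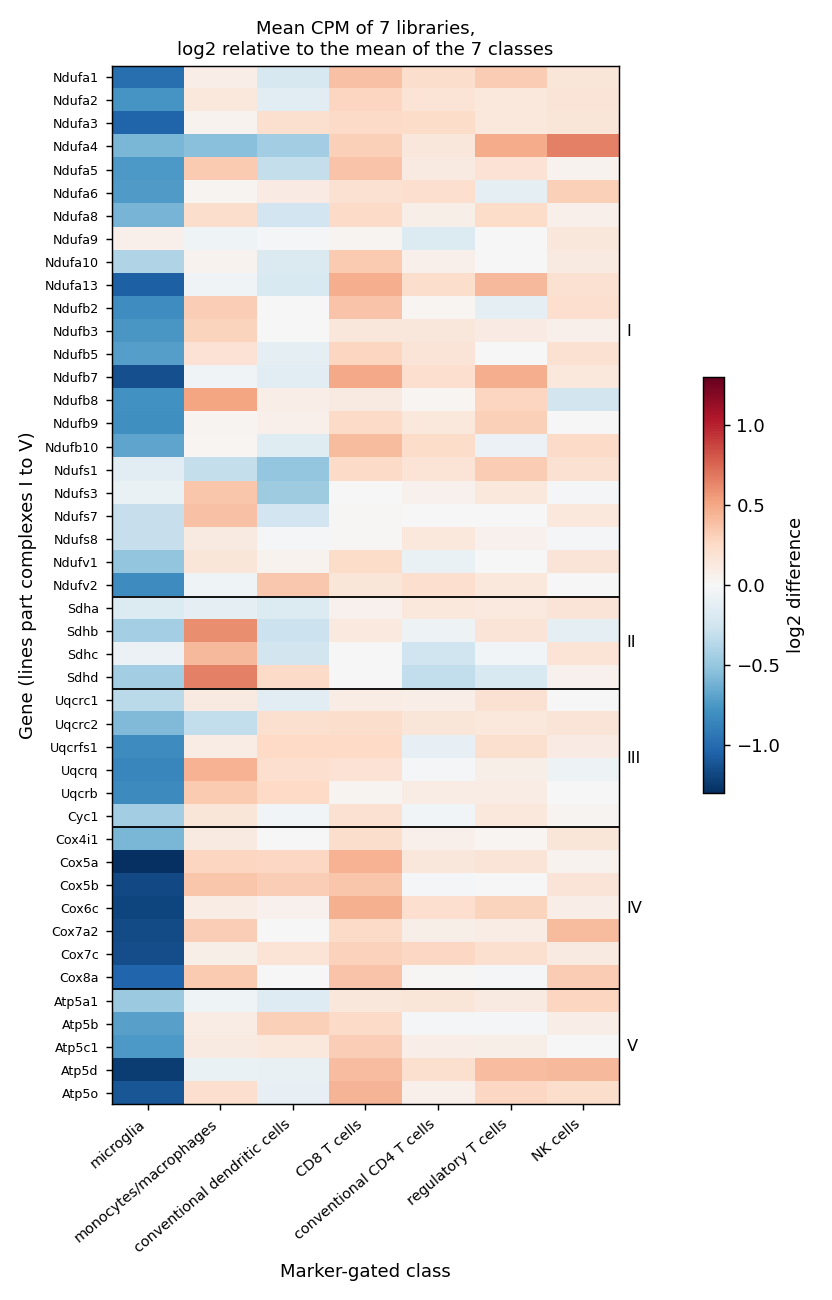
Mean CPM over 7 libraries of each of the 45 genes (rows, grouped by complex) in the 7 tested classes (columns), as the log2 difference from the mean of the 7 classes. The microglial column is lowest for 40 of 45 genes, most deeply in complex IV, and Sdhb, Sdhc and Sdhd of complex II are highest in the monocyte/macrophage column.

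In each complex the gene with the largest and the gene with the smallest variation between classes show the range of behaviour. In complex I these were Ndufb7 and Ndufa9, both accessory subunits that surround the catalytic core. Ndufb7 had a low, median and high of 65.4, 85.3 and 101 CPM over the microglial libraries and of 207, 273 and 303 CPM in CD8 T cells. Microglia were below every other library and class for Ndufb7, by -1.38 ± 0.06 (log2 difference ± SE, adjusted p = 7.77e-24). Ndufa9 lay at 49.2, 59.8 and 67.3 CPM in microglia and at 48.7, 55.8 and 59.7 CPM in monocytes/macrophages, so the classes overlapped. Its microglial difference of 0.03 ± 0.06 (adjusted p = 0.989) was the exception among the 45 genes, and its sign turned to -0.0036 without PT2385 pool 2.

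In complex II, Sdhd, a membrane anchor of succinate dehydrogenase, had the most variation: 79.3, 89.8 and 93.7 CPM in monocytes/macrophages against 34.2, 39.3 and 53.9 CPM in microglia. Sdha, the flavoprotein subunit that oxidises succinate, had the least, with means of 70.8 ± 4.69 CPM in microglia, 73.2 ± 4.23 in monocytes/macrophages and 89.5 ± 11.3 in NK cells. The microglial differences from the other classes were -0.58 ± 0.07 for Sdhd (adjusted p = 7.46e-10) and -0.24 ± 0.05 for Sdha (adjusted p = 8.85e-05).

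In complex III the pair was Uqcrq, a small accessory subunit, and Uqcrc1, a core protein. Uqcrq had 102, 122 and 141 CPM in microglia and 264, 300.4 and 319 CPM in monocytes/macrophages, with no overlap, and its microglial difference was -1.05 ± 0.06 (adjusted p = 7.93e-22). Uqcrc1 spanned a narrower range, from a class mean of 60.3 ± 4.12 CPM in microglia to 87.8 ± 10.4 CPM in regulatory T cells, with a microglial difference of -0.45 ± 0.06 (adjusted p = 6.44e-09).

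Cox5a, a nuclear-encoded subunit that packs against the catalytic core of complex IV, varied most of all 45 genes, 3.50-fold between class means. It had 97.0, 132 and 153 CPM in microglia, 345, 405 and 417 CPM in monocytes/macrophages and 349, 451 and 523 CPM in CD8 T cells. No microglial library came near the lowest value elsewhere, 293 CPM, and the microglial difference was -1.64 ± 0.06 (adjusted p = 2.14e-28). Cox6c and Cox5b, further complex IV subunits, followed at -1.45 ± 0.06 and -1.43 ± 0.07. Cox4i1, the largest nuclear subunit of complex IV, varied least there, with means of 417 ± 42.7 CPM in microglia and 738 ± 42.1 CPM in CD8 T cells and a microglial difference of -0.75 ± 0.04 (adjusted p = 5.80e-20). Against monocytes/macrophages alone, the 4 lowest genes were all of complex IV: Cox5a (-1.96 ± 0.07), Cox5b (-1.86 ± 0.08), Cox7a2 (-1.80 ± 0.07) and Cox8a (-1.69 ± 0.07).

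In complex V the most variable gene was Atp5d, the delta subunit of the rotating stalk, with 111, 127 and 151 CPM in microglia and 382, 398 and 445 CPM in NK cells. Its microglial difference was -1.49 ± 0.05 (adjusted p = 9.52e-30). Atp5a1, the alpha subunit, varied least, from 188 ± 8.82 CPM in microglia to 319 ± 12.1 CPM in NK cells (microglial difference -0.61 ± 0.04, adjusted p = 8.82e-18).

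The bases before the transcription starts of the 45 genes were also read. RefSeq promoter windows (build GRCm38.p6, 250 bases before to 50 after the start) were present for 34 of the 45 genes, in 37 windows. Binding sites of NRF1, of ETS-family factors such as GABPA, and of YY1 are known in many promoters of nuclear respiratory genes, and each was searched as plain letters on both strands. The NRF1 core TGCGCA, which reads the same on both strands, was in 29.7% of the members' windows and 7.76% of 32851 windows of all genes. The ETS letters CCGGAAG were in 16.2% (against 8.86%) and the YY1 letters AAGATGGC in 10.8% (against 2.75%). ACGTG, the core bound by hypoxia-inducible factors, was in 18.9% of the members' windows and 19.6% of all windows. These are matches of letters, not measured binding. The windows of all genes cover 27025 genes, expressed here or not, whereas the members are expressed in every class. The comparison holds no information on microglia.

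The 250 bases before the start are shown for Cox5a, Ndufb7, Ndufa9, Sdhd and Sdha, named above for their high or low variation, and for Cox8b, a tissue-restricted complex IV gene described further down, each 5′ to 3′ on the gene's strand with matches to NRF1, ETS or YY1 letters in capitals.
Cox5a (most variable, chr9:57520982-57521231, plus strand, no match): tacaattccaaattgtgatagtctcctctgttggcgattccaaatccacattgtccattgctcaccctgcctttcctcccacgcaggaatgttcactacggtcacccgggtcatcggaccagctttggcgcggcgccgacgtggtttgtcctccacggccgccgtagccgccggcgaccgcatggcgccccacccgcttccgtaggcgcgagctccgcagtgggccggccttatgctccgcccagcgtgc
Ndufb7 (most variable, chr8:83566508-83566757, plus strand, an ETS match): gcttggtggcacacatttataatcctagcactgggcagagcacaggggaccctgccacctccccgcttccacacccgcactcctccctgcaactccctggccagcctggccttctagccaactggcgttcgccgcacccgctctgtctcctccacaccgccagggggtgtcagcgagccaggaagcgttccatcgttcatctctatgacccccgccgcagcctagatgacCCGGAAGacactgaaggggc
Ndufa9 (least variable, chr6:126849145-126849394, minus strand, an NRF1 core): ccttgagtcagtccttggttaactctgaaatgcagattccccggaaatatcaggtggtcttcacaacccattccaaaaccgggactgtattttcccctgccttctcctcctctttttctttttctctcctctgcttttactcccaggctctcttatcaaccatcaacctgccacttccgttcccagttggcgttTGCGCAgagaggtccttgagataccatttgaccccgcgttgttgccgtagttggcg
Sdhd (most variable, chr9:50603850-50604099, minus strand, 2 NRF1 cores and an ETS match): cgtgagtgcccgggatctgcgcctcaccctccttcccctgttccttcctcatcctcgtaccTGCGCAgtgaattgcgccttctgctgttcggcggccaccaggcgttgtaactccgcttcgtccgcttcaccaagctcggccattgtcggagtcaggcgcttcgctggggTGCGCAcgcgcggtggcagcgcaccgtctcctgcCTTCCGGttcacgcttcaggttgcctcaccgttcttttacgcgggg
Sdha (least variable, chr13:74350241-74350490, minus strand, 2 NRF1 cores): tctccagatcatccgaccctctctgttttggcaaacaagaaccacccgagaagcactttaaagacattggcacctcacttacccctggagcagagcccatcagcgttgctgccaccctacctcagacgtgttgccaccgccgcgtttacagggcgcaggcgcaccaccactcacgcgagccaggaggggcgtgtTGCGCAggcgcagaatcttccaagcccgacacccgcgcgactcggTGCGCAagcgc
Cox8b (tissue-restricted, chr7:140900447-140900696, minus strand, no match): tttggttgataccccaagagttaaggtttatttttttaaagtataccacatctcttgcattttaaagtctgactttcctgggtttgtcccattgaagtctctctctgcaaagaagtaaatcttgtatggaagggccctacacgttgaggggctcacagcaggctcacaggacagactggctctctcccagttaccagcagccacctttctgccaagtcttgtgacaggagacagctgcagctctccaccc

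Monocytes/macrophages were the reverse of microglia in most of the pathway, and stood apart most in complex II. Of the 45 genes, 42 were called higher than the mean of the other 6 classes and 1 lower, against 41.1% and 35.7% of all genes, with a median of 0.46. Complex II led with 4 of 4 genes higher and a median of 0.92, ahead of complex IV (7 of 7, 0.65), complex III (5 of 6, 0.48), complex V (5 of 5, 0.43) and complex I (21 of 23, 0.42). Sdha was the weakest of these, at 0.18 ± 0.05 (adjusted p = 0.00128), and it turned to -0.14 with library totals alone. Sdhb, the iron-sulphur subunit of complex II, had 158, 194 and 199 CPM in monocytes/macrophages, and no library of another class passed 164 CPM. The differences were 1.09 ± 0.06 for Sdhd, 1.02 ± 0.05 for Sdhb, 0.93 ± 0.05 for Ndufb8, an accessory subunit of complex I, and 0.85 ± 0.05 for Uqcrq (adjusted p from 1.37e-22 to 6.52e-21). For 6 genes (Ndufb8, Ndufs3, Ndufs7, Sdhb, Sdhd and Uqcrq) monocytes/macrophages were the highest class in all 7 libraries, as they were for 5.24% of all genes. Ndufa4 went the other way, at -0.33 ± 0.08 (adjusted p = 0.000445).

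These macrophage counts depend on the scaling between classes. With library totals alone, a setting chosen after the data were seen, 26 of the 45 were called higher and 5 lower, and the median of all genes moved to -0.29. Relative to all genes the members' median was 0.44 under both scalings. With library totals alone microglia had 42 genes called lower and 0 higher, and 41 and 0 against monocytes/macrophages, where the median moved from -1.23 to -0.91. The shares of all genes called with library totals alone, or under other alternative settings, are not given. Counts of members called in such settings, here and for the classes below, therefore cannot be set against all genes.

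CD8 T cells were above the mean of the other classes for 34 of 45 genes and below for 0, against 31.8% of all genes higher, with a median of 0.24. All 7 genes of complex IV (median 0.37) and all 5 of complex V were higher, with 18 of 23 of complex I and 4 of 6 of complex III, but 0 of 4 of complex II. The largest differences were Ndufb7 (0.52 ± 0.06), Ndufa13 (0.49 ± 0.05), another accessory subunit of complex I, Cox6c (0.48 ± 0.05) and Cox5a (0.47 ± 0.05), with adjusted p from 8.58e-12 to 6.05e-11. Cells with at least 4 of 9 proliferation markers had a member sum 1.35 times that of cells with none in the median library, higher in 7 of 7. With such cells left out, the CD8 level was 9168 CPM in place of 9963 CPM.

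NK cells differed from CD8 T cells downward: 17 of 45 genes were lower and 1 higher, against 18.3% and 17.4% of all genes, with a median of -0.15. Cox5a (-0.42 ± 0.07, adjusted p = 1.87e-06), Cox6c (-0.39 ± 0.07, adjusted p = 1.45e-05) and Ndufb7 (-0.37 ± 0.08, adjusted p = 0.000143) were the lowest. The gene that was higher in NK cells was Ndufa4, at 0.32 ± 0.11 (adjusted p = 0.0207, but 0.0842 without the untreated pool). Against all 6 other classes, 11 genes were higher in NK cells and 3 lower (26.7% and 27.2% of all genes), or 23 and 2 with library totals alone. Ndufa4 led at 0.69 ± 0.08 (adjusted p = 1.52e-09), followed by Cox7a2 and Atp5d, both at 0.41.

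Ndufa4 was lower in the myeloid than in most lymphoid libraries. It was low in microglia (109, 134 and 156 CPM), monocytes/macrophages (100.0, 121 and 183 CPM) and conventional dendritic cells (99.8, 148 and 186 CPM), and the values of these 3 overlapped. Conventional CD4 T cells (163, 227 and 248 CPM) and CD8 T cells (184, 258 and 281 CPM) were higher, with lowest values inside the range of dendritic cells. NK cells were highest (283, 311 and 347 CPM) and led in 6 of 7 libraries, while regulatory T cells (233, 276 and 328 CPM) overlapped with them.

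Conventional dendritic cells were called higher for 22 genes and lower for 5 (34.3% and 33.3% of all genes), or 13 and 20 with library totals alone, where the median of all genes was -0.19. All 7 complex IV genes and 4 of 6 complex III genes were higher, whereas complex I was split, with 8 higher and 4 lower. Ndufv2, an iron-sulphur subunit of the NADH-oxidising arm of complex I, was the highest at 0.57 ± 0.05 (adjusted p = 9.20e-13), with 111, 113 and 137 CPM. Cox5b (0.53 ± 0.06) and Atp5b, the catalytic beta subunit of ATP synthase (0.53 ± 0.04), came next. Ndufs1 (-0.41 ± 0.08), Ndufs3 (-0.37 ± 0.08) and Ndufa4 (-0.37 ± 0.09) were the lowest, with adjusted p from 2.94e-05 to 0.000369. Dendritic cells were the lowest class for Ndufs3 in all 7 libraries.

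The CD4 lineages were near the average of the classes. Conventional CD4 T cells had 7 genes higher and 9 lower (27.7% and 25% of all genes), or 19 and 3 with library totals alone, where the median of all genes was 0.13. Complex II stood lowest, with 3 of 4 genes called lower, among them the membrane anchors Sdhd (-0.49 ± 0.08, adjusted p = 1.49e-06) and Sdhc (-0.42 ± 0.06, adjusted p = 4.53e-07). Regulatory T cells had 8 genes higher and 11 lower (24.5% and 23.5% of all genes), or 20 and 1 with library totals alone and 9 and 7 with DESeq2. Ndufa4 (0.40 ± 0.09) and Ndufb7 (0.39 ± 0.06) were higher there, and Sdhd (-0.40 ± 0.10) and Ndufa6 (-0.32 ± 0.07), an accessory subunit of complex I, were lower. Between the CD4 lineages, 2 of 45 genes were lower in regulatory T cells and 0 higher (9.1% and 7.67% of all genes). These were the complex I accessory genes Ndufa6 (-0.37 ± 0.08, adjusted p = 0.000736) and Ndufb10 (-0.35 ± 0.08, adjusted p = 0.000693), and this count moved with the settings: 5 were higher and 2 lower with DESeq2, 7 and 2 with library totals alone, and 0 and 8 with proliferating cells left out.

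The subunits encoded by mitochondrial DNA did not follow the nuclear genes in microglia. Their summed level, over 13 genes, was 14572 ± 2123 CPM in microglia and 15221 ± 1955 CPM in monocytes/macrophages, ranges that overlap, although cells above 10% mitochondrial UMIs had been removed. The ratio of nuclear to mitochondrially encoded transcripts was 0.321 ± 0.0334 in microglia, 0.605 ± 0.0645 in monocytes/macrophages, 0.596 ± 0.0431 in conventional dendritic cells and 0.566 ± 0.0539 in CD8 T cells. Within the 13 the direction went by complex: mt-Co1, mt-Co2 and mt-Co3 (complex IV) and mt-Atp6 and mt-Atp8 (complex V) were lower in microglia than in the other classes, from -0.77 ± 0.05 for mt-Co1 to -0.25 ± 0.05 for mt-Co3. mt-Cytb (complex III) and all complex I genes except mt-Nd6 were higher, up to 0.71 ± 0.05 for mt-Nd2 (adjusted p = 1.46e-16). In all, 7 were called higher and 6 lower (42.4% and 38% of all genes).

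**Figure D3:**
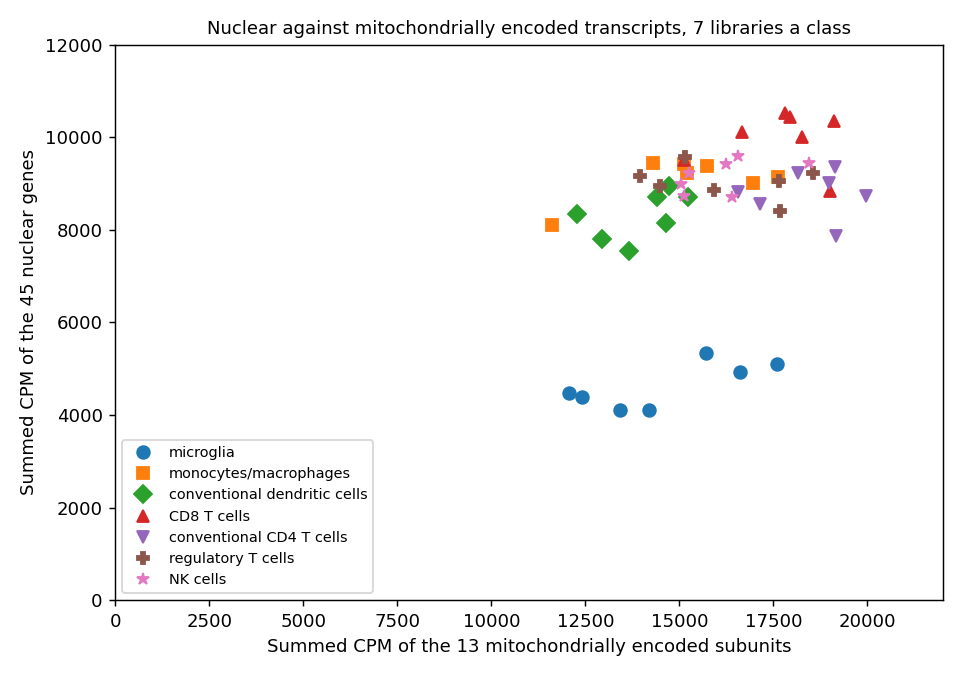
Summed CPM of the 45 nuclear genes (vertical) against that of the 13 mitochondrially encoded subunits (horizontal) in 7 libraries of each tested class, linear axes from 0. Microglial points lie between 4104 and 5333 CPM on the vertical axis at mitochondrial levels that overlap those of monocytes/macrophages.

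Other genes of the pathway were counted the same way. Of all genes tested, 38% were called lower and 42.4% higher in microglia. In monocytes/macrophages 41.1% were called higher and 35.7% lower. Of 36 further nuclear subunits, 35 were lower in microglia and 0 higher, and 34 were higher and 1 lower in monocytes/macrophages. Of 43 assembly factors tested, which build the complexes without staying in them, 26 were lower in microglia and 10 higher. Of 11 regulators of respiratory gene expression, 2 were lower and 3 higher in microglia, both below the shares of all genes. Tfam, which packages and transcribes mitochondrial DNA, was lower (-0.62 ± 0.08, adjusted p = 7.86e-09), and Esrra, a nuclear receptor that acts on respiratory genes, was higher (0.59 ± 0.07, adjusted p = 1.15e-09). In the tricarboxylic acid cycle 10 of 13 genes were lower in microglia and 3 higher. Glycolytic genes split in microglia, with 11 of 17 lower and 6 higher, and 17 of 17 were higher in monocytes/macrophages, with a median of 1.53. The ratio of the 45 genes to the glycolytic genes was lower in monocytes/macrophages (1.33 ± 0.168) than in microglia (2.03 ± 0.276), and highest among tested classes in NK cells (3.96 ± 0.479).

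Some complex IV subunits have tissue-restricted or oxygen-dependent forms from other genes. Cox6a2, Cox6b2, Cox7a1 and Cox8b were high in few classes, with low or no counts in most others. Cox6a2, known as the heart and muscle form of subunit VIa, was at 1158 ± 265 CPM in plasmacytoid dendritic cells (194 cells), with 168 to 623 UMIs in each library. Neutrophils (118 cells) had the next highest mean, 127 ± 183 CPM, on 0 to 34 UMIs a library. Cox6a2 was at 13.2 ± 10.5 CPM in microglia and 4.01 ± 1.06 CPM in monocytes/macrophages. In NK cells its UMIs were 9 in the untreated pool, 21 and 11 with PT2385, 25 and 7 with ICB and 32 and 31 with both. Cox6a2 was the form called with treatment: it rose with PT2385 in NK cells by 2.11 ± 0.35 on the log2 scale (adjusted p = 0.0159) in the additive model and by 2.50 ± 0.37 for the combination against ICB (adjusted p = 0.0111). In these comparisons 0.459% and 0.0632% of all genes were called in NK cells. Both calls rest on few UMIs and were lost without either combination pool (adjusted p from 0.0726 to 0.129), and the first also without ICB pool 2 (adjusted p = 0.0599). PT2385 alone against the untreated pool gave 1.00 (adjusted p = 0.714). Plasmacytoid dendritic cells were present in all 7 libraries, and the part of their transcripts in the NK counts was not tested.

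Cox4i2 and Ndufa4l2 are known as targets of low oxygen. Cox4i2 was at 4.64 ± 1.80 CPM in monocytes/macrophages and 1.63 ± 0.538 CPM in microglia, with 0 UMIs in CD8 T cells. Ndufa4l2 gave 51 UMIs among 15223 monocytes/macrophages, 2 in the untreated pool, 23 and 11 with PT2385, 1 and 5 with ICB and 8 and 1 with both. In monocytes/macrophages its PT2385 effect was 2.02 ± 0.81 (adjusted p = 0.211), which did not pass the test, and in the other tested classes it stayed under the filter on low counts.

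**Figure D4:**
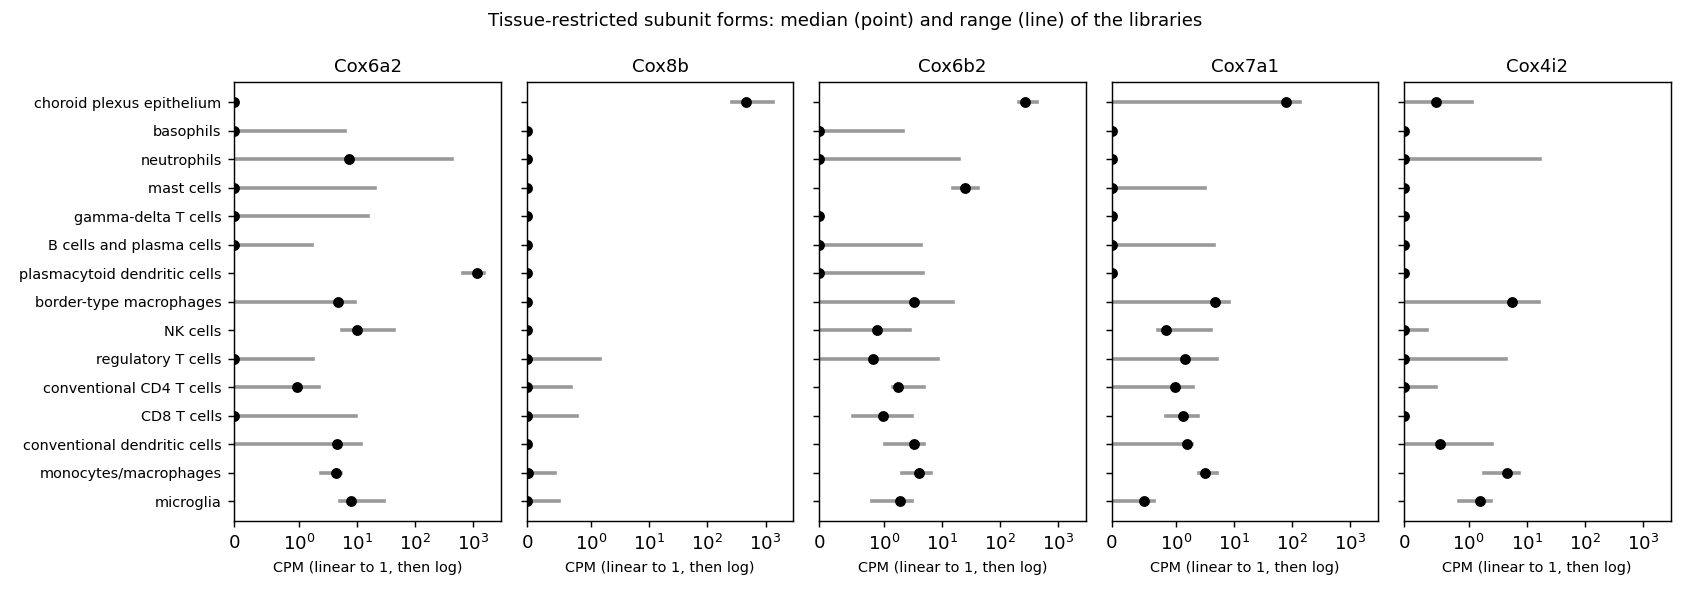
CPM of 5 tissue-restricted complex IV genes (linear to 1, then log) in 15 classes, with a point at the median and a line over the range of the libraries. Cox6a2 is highest in plasmacytoid dendritic cells (672 to 1553 CPM), and Cox8b, Cox6b2 and Cox7a1 are highest in choroid plexus epithelium.

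Choroid plexus epithelium, which secretes cerebrospinal fluid, had the highest member level, 37668 ± 4187 CPM (SD, n = 6 libraries), which was 8.12 ± 0.852 times that of microglia of the same library. Complex IV summed to 14579 ± 1627 CPM there and Cox8a alone to 3698 ± 235 CPM. Cox8b, the second form of subunit VIII, was at 569 ± 397 CPM, while monocytes/macrophages gave 18 UMIs of it in all. Cox6b2 was at 301 ± 83.2 CPM and Cox7a1 at 76.2 ± 43.6 CPM in choroid cells, against 3.99 ± 1.60 and 3.25 ± 0.861 CPM in monocytes/macrophages. These cells were not tested: there were 0 in the untreated pool, 15 and 4 with PT2385, 79 and 192 with ICB and 353 and 695 with both. The 9 choroid markers were also counted in the other classes, unequally between pools, and summed in microglia to 2.00 CPM in the untreated pool, 5.51 and 16.0 with PT2385, 50.1 and 102 with ICB and 270 and 311 with both, against a median of 255803 CPM in choroid cells. The part of choroid transcripts in the treatment values below was not tested. Among other classes that were too small to test, neutrophils (5654 ± 1774 CPM) and basophils (3809 ± 221 CPM, n = 3 libraries) were low, and plasmacytoid dendritic cells (9494 ± 226 CPM) and mast cells (9418 ± 525 CPM) were near the lymphocytes. Basophils numbered 8 in the untreated pool, 100 in ICB pool 1 and 1 in combination pool 2, and neutrophils 3 to 53 a library. Within a library basophils stood at 0.863 to 0.900 times the microglial level, and neutrophils at 0.749 to 1.65 times.

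None of the 45 genes passed edgeR's threshold with treatment. Over 5 comparisons in 7 classes and 2 tests of a difference between classes, edgeR called 0 of the 45 genes in each of the 37 results. At an unadjusted p under 0.05 it counted 97 of 1665 gene tests, and DESeq2 called 4. The shares of all genes at that unadjusted level, or called by DESeq2, are not given here. Such counts of members, here and below, therefore cannot be set against all genes. All-gene shares called by edgeR were small as well, and the 0 for the members has to be read against them. Comparisons that share pools, such as the combination against ICB and against untreated, are not independent.

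PT2385 was assessed in an additive model, 4 pools with the drug against 3 without. In monocytes/macrophages 125 of 14363 genes (0.87%) were called and 0 of the 45, of which 10 had an unadjusted p under 0.05. The members' median was 0.09, with 34 of 45 above 0, and the median of all genes was 0.00. Complex IV had the highest median, 0.22. Ndufa5, an accessory subunit of complex I, was at 79.8 CPM in the untreated pool, 112 and 104 with PT2385, 85.2 and 82.4 with ICB and 92.2 and 97.8 with both. The 4 pools with PT2385 thus lay above the 3 without, by 0.30 ± 0.07 (adjusted p = 0.082). Cox6c showed the same separation, at 336 CPM untreated, 445 and 439 with PT2385, 390 and 402 with ICB and 448 and 440 with both (0.27 ± 0.07, adjusted p = 0.107). Cox7c, at 0.24 ± 0.07 (adjusted p = 0.115), was the next. DESeq2 called these 3 genes (adjusted p from 0.0158 to 0.0328), and edgeR called 4 genes without ICB pool 2.

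Cells with 2 or more UMIs of Nos2, which encodes inducible nitric oxide synthase, made up 8.51% of monocytes/macrophages in the untreated pool, 42.4% and 34.5% with PT2385, 2.56% and 2.98% with ICB and 8.15% and 26.0% with both. Within libraries the member sum of these cells was 0.969 to 1.01 times that of cells without Nos2 UMIs, higher in 1 of 7 libraries.

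In the other classes PT2385 gave 0 members called of 45 as well, by edgeR and by DESeq2, with 3 at an unadjusted p under 0.05 in NK cells, 2 in microglia, 1 in conventional CD4 T cells and 0 in the others. The shares of all genes called were 0% in microglia, 0.459% in NK cells, 0.01% in CD8 T cells, 0.0701% in conventional CD4 T cells, 0.00962% in conventional dendritic cells and 0.0387% in regulatory T cells. In NK cells 37 of 45 genes were above 0 with a median of 0.12 (0.01 for all genes). Ndufa2, an accessory subunit of complex I, had the smallest p there (0.32 ± 0.11, adjusted p = 0.25). Microglia had a median of -0.08, which averages opposite directions: PT2385 alone against the untreated pool gave a median of 0.17, with 37 of 45 above 0, and PT2385 added to ICB gave -0.23. The difference of the PT2385 effect between microglia and monocytes/macrophages was tested itself, and 0 of 45 genes (0.0405% of all genes) were called, with 3 at an unadjusted p under 0.05, 0 by DESeq2 and a median of -0.18.

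ICB was assessed the same way, 4 pools against 3. In microglia 37 of 12002 genes (0.308%) were called and 0 of the 45, although 42 of 45 were below 0, with a median of -0.23 against -0.01 for all genes and 10 at an unadjusted p under 0.05. ICB alone against the untreated pool did not share this direction, with a median of 0.06 and 28 of 45 above 0. Complex IV was lowest, with a median of -0.28. Cox5a in microglia was at 132 CPM untreated, 147 and 153 with PT2385, 118 and 141 with ICB and 97.0 and 108 with both. The groups overlapped through ICB pool 2, and the difference was -0.41 ± 0.13 (adjusted p = 0.213). Cox5b gave -0.42 ± 0.14 (adjusted p = 0.221) and Ndufb10 -0.32 ± 0.11 (adjusted p = 0.25). edgeR called 5 genes lower without ICB pool 2 and 2 without the untreated pool, and DESeq2 called 0.

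In monocytes/macrophages ICB gave 0 members called by either tool (0.00696% of all genes by edgeR), 2 at an unadjusted p under 0.05 and a median of 0.03. Ndufa4 again stood apart, at 102 CPM untreated, 100.0 and 120 with PT2385, 183 and 175 with ICB and 157 and 121 with both. The pools with ICB lay above those without, by 0.51 ± 0.13 (adjusted p = 0.466). In microglia the same gene was at 134 CPM untreated, 139 and 156 with PT2385, 123 and 149 with ICB and 109 and 117 with both. The ICB effect on Ndufa4 in microglia minus that in monocytes/macrophages was -0.76 ± 0.14 (adjusted p = 0.132), and DESeq2 called this difference (-0.81, adjusted p = 0.00327). No other member was called there by either tool, against 0.00674% of all genes by edgeR. The members' median was -0.22, with 41 of 45 below 0, and the median of all genes was 0.02. In the 5 remaining classes the ICB medians ran from -0.12 in conventional CD4 T cells to 0.12 in conventional dendritic cells, with 0 of 45 called by either tool and 2 genes in conventional CD4 and 1 in regulatory T cells at an unadjusted p under 0.05. All-gene shares there were 0.01% in CD8 T cells, 0.0224% in NK cells, 0.11% in conventional CD4 T cells, 0.00962% in conventional dendritic cells and 0.0129% in regulatory T cells.

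**Figure D5:**
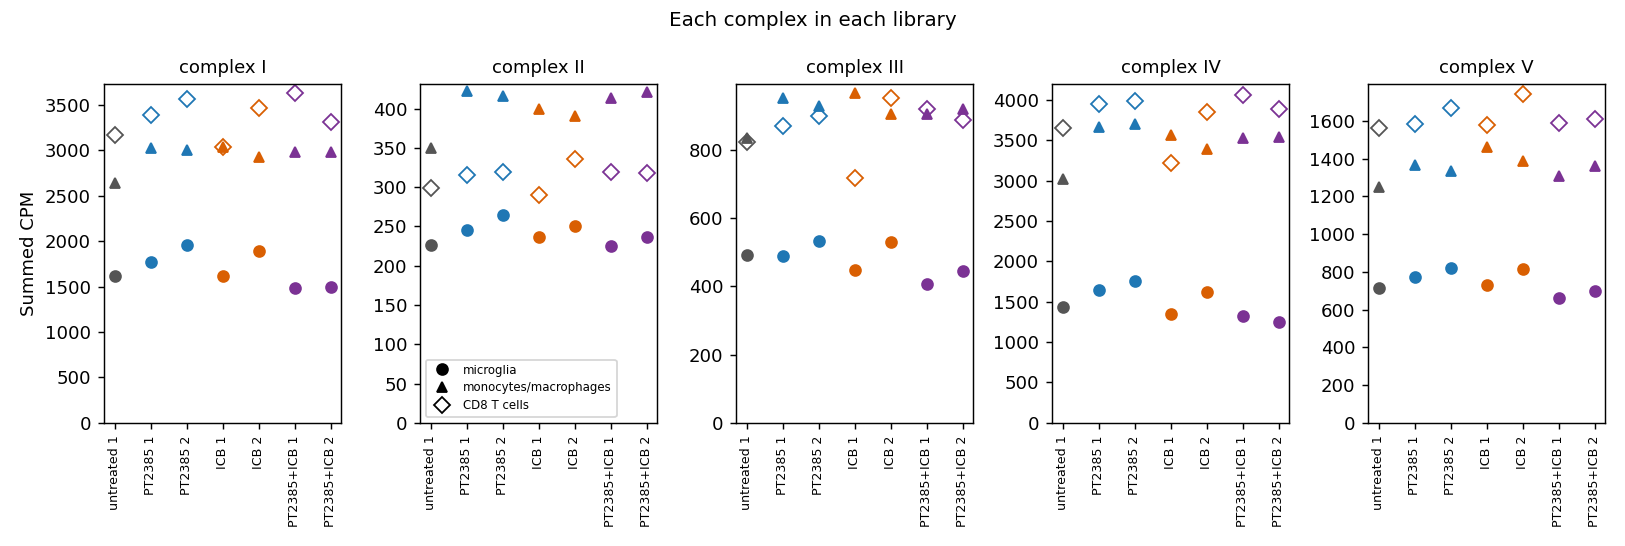
Summed CPM of each complex (5 panels, vertical axis from 0) in each library for microglia (filled circles), monocytes/macrophages (triangles) and CD8 T cells (open diamonds), coloured by treatment. Microglia lie below both other classes in every panel and library, and in monocytes/macrophages the untreated pool is lowest in each of the 5 panels.

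Adding PT2385 to ICB gave 0 of 45 genes called in each class. All-gene shares were 0.0632% in NK cells, 0.0843% in conventional CD4 T cells, 0.0472% in regulatory T cells and 0% in the other classes. In microglia, where 0% of genes were called, 44 of 45 members were below 0, with 12 at an unadjusted p under 0.05, while DESeq2 called 0. The members' median was -0.23, against -0.004 for all genes. The member sum was 4381 and 5110 CPM in the ICB pools and 4104 and 4118 CPM in the combination pools. Atp5o, which joins the stalk of ATP synthase to its head, was at 69.8 and 84.9 CPM with ICB and 56.6 and 58.6 CPM with both, without overlap (-0.45 ± 0.13, adjusted p = 0.495). Ndufb7 was at 85.3 and 101 CPM against 73.9 and 73.1 CPM (-0.36 ± 0.13, adjusted p = 0.537). In monocytes/macrophages the median was 0.04, with 1 gene at an unadjusted p under 0.05. Ndufv2 in conventional CD4 T cells (-0.59 ± 0.17, adjusted p = 0.286) and Cyc1, cytochrome c1 of complex III, in regulatory T cells (-0.72 ± 0.25, adjusted p = 0.684) had the smallest p of their classes. Against the untreated pool the combination also gave 0 of 45 in each class, with 12 gene tests at an unadjusted p under 0.05, 0 calls by DESeq2 and medians from -0.16 in microglia to 0.14 in monocytes/macrophages. In the latter 43 of 45 genes lay above 0, while the median of all genes was 0.02. The untreated sum of that class, 8100 CPM, was below those of the other 6 pools (9006 to 9441 CPM). All-gene shares called by edgeR there were 0.0636% in microglia, 0% in monocytes/macrophages, 0.0284% in CD8 T cells, 0.0105% in NK cells, 0.0375% in conventional CD4 T cells, 0.0182% in conventional dendritic cells and 0.118% in regulatory T cells.

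The interaction, the PT2385 effect with ICB minus that without, was called for 0 of 45 genes in each class (0.00794% of all genes in microglia, 0.059% in regulatory T cells and 0% elsewhere). Over the 7 classes 19 gene tests had an unadjusted p under 0.05. In microglia its median was -0.45, 41 of 45 genes were below 0 and 16 had an unadjusted p under 0.05, with 0 called by DESeq2. The median of all genes there was -0.02. The microglial member sum was 4475 CPM in the untreated pool and 4920 and 5333 CPM with PT2385 alone, against 4381 and 5110 CPM with ICB and 4104 and 4118 CPM with both. Ndufs3, a core subunit of complex I, was at 61.5 CPM untreated, 84.8 and 105 with PT2385, 64.9 and 88.6 with ICB and 58.9 and 64.4 with both (-0.98 ± 0.29, adjusted p = 0.337). Ndufb7 gave -0.84 ± 0.22 (adjusted p = 0.322). edgeR called 5 genes without ICB pool 1, and the arm without ICB rests on 1 untreated pool.

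Other measures of the microglial class also differed between pools, without following its member sum in every pool. The share of microglia with at least 4 of 9 proliferation markers was 0.357% in the untreated pool, 3.101% and 3.31% with PT2385, 0.631% and 2.95% with ICB and 0.0992% and 0.500% with both. Monocyte/macrophage markers in microglia summed to 1253 CPM, 1612 and 1619, 1087 and 1729, and 1117 and 961 CPM in the same order. Microglial markers there summed to 7872 CPM, 5755 and 6729, 8939 and 7303, and 7494 and 8816 CPM. In microglia with 0 proliferation markers the member sum was 4406 CPM untreated, 4546 and 4845 with PT2385, 4226 and 4804 with ICB and 4101 and 4046 with both, a range from 4046 to 4845 CPM, against 4104 to 5333 CPM over all microglia. The part of the macrophage transcripts in these values was not tested.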

How the data were processed

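Unique molecular identifiers were counted per gene and cell in 7 droplet libraries. The deposited matrices hold raw UMI counts of 32285 genes per barcode, made by the authors with Cell Ranger (version 2.2.0 per the submitters' processing notes, 7.0.0 per the file headers) on GRCm39. The processing notes also name Seurat 5, whose output was not used here. Of 41033 barcodes, 40416 had 300 or more detected genes and a mitochondrial share of UMIs of 10% or less, and these were analysed. The limit bounds the mitochondrially encoded sums. No doublet caller was run: cells that met 2 gates (30) were left unassigned, and leaving out the cells of highest UMI count, 0.8% per 1000 cells, was an alternative. Gates required a minimum number of detected markers per cell, and their thresholds were set after the data had been seen.

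Counts were summed per class and library and tested with edgeR 4.0.16 in R 4.3.3 (quasi-likelihood, TMM scaling, filterByExpr on the design). Benjamini-Hochberg adjustment ran over all genes tested in a fit, with calls at 0.05. The SE is the size of the log2 difference divided by the square root of F. edgeR keeps a p-value from falling below that of a Poisson fit, so for some genes (Ndufa9 in microglia) the p is larger than the SE implies. Class differences used 7 classes in 7 libraries with library as a block. The effects of PT2385 and of ICB came from an additive model (4 residual degrees of freedom), and the combination and interaction from group means (3 residual degrees of freedom). The difference of effects between microglia and monocytes/macrophages came from 1 model of both classes with library as a block. Replicates were numbered in accession order.

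Genes named in a comparison were at most the 4 largest differences in each direction among those called, or the 3 of smallest p where fewer than 3 were called, and in each complex the genes of highest and lowest variation between classes. Tissue-restricted forms were given wherever a library held 3 UMIs of them. Genes from other lists were named as examples after their values had been seen. The members, the gene lists and the comparisons were chosen with earlier results of these data known. The alternatives were DESeq2 1.42.0, RLE scaling, no filter on low counts, stricter cell filters (500 genes, 5% mitochondrial UMIs), a mitochondrial limit of 20%, stricter gates, no mitochondrially encoded or ribosomal protein genes, the group-mean model and each library left out. Library totals alone and leaving out proliferating cells were added after the data had been seen. The fits were checked on simulated data.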

Additional observations from a re-analysis of the deposited data

How the results depend on the processing

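The microglial deficit kept its direction, and its count of calls within 1.5 times, in the alternatives run: 42 to 44 of 45 genes were called lower with any library left out (42 to 44 also against monocytes/macrophages), and the summed level stayed between 4518 and 4723 CPM. With a library left out, calls ranged from 43 to 44 in monocytes/macrophages, 31 to 34 in CD8 T cells, 26 to 28 in conventional dendritic cells, 11 to 14 in NK cells, 11 to 16 in conventional CD4 T cells, 14 to 18 in regulatory T cells, 14 to 19 for NK against CD8 T cells and 2 to 4 for regulatory against conventional CD4 T cells. Library totals alone gave 25 calls in NK cells, and no filter on low counts gave 10 in conventional CD4 T cells (1 higher, 9 lower). Between the CD4 lineages the count was 7 with DESeq2 and with RLE scaling, 8 without proliferating cells, 9 with library totals alone and 4 with stricter gates. Leaving out proliferating cells moved the summed level to 9168 CPM in CD8 T cells and to 8016 CPM in regulatory T cells. Ndufa9 in microglia ranged from -0.0036 (without PT2385 replicate 2) to 0.0651 with a library left out. Sdha in monocytes/macrophages was at -0.1446 with library totals alone and lost its call with stricter gates (0.1056, adjusted p = 0.0704). The cause of these shifts was not tested.

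Of 629 treatment fits under alternatives, 12 called any of the 45 genes. For ICB in microglia there were 2 calls with no filter on low counts and 0 to 5 with a library left out. For PT2385 in monocytes/macrophages there were 3 with DESeq2, 1 with stricter gates and 0 to 4 with a library left out. The interaction in microglia gave 3 with no filter and 0 to 5 with a library left out. The combination against ICB in monocytes/macrophages gave 0 to 1 with a library left out. The difference of the ICB effect between microglia and monocytes/macrophages gave 1 with DESeq2, 1 with no filter and 0 to 1 with a library left out, each time Ndufa4. Outside the treatment fits, 2 class differences also lost their call in edgeR. Ndufa5, lower in conventional dendritic cells than in the other classes, lost it without PT2385 replicate 1 (adjusted p = 0.052) or the untreated pool (adjusted p = 0.0721). Uqcrq, lower in NK cells than in the other classes, lost it without ICB replicate 2 (adjusted p = 0.0595) and without the untreated pool (adjusted p = 0.0525). The call was also lost with library totals alone (adjusted p = 0.257) and without proliferating cells (adjusted p = 0.102).

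No paired analysis was possible because the labels give no replicate number that groups share. With 1 untreated pool and 2 pools in each other group, precision rests on 3 or 4 residual degrees of freedom. Regulatory T cells (32 to 131 cells a library) and NK cells (88 to 372) are the thinnest classes, and DESeq2 gave no adjusted p for Cox6a2 in NK cells.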

Other observations

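Within complex I the microglial deficit was uneven. Among the 6 core subunits in the list, which carry the flavin, iron-sulphur clusters and the arm between them, 1 (Ndufv2) lay below every other class without overlap, and the median difference from the other classes was -0.40. Among the 17 accessory genes, counted here with Ndufa4, there were 11, with a median of -0.93. Of all genes tested, 6.11% lay below every other class in this way. The core genes ranged from -0.16 ± 0.07 for Ndufs3 and -0.21 ± 0.07 for Ndufs1 to -1.01 ± 0.06 for Ndufv2. Ndufs3 was called in the fit as reported (adjusted p = 0.037, edgeR) and lost the call in 10 alternatives (adjusted p up to 0.242). Against monocytes/macrophages alone the medians were -0.89 and -1.23. This split was made after the values were seen and was not tested.

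The assembly factors lowest in microglia included genes for copper delivery to and early assembly of complex IV. Cox17, a copper chaperone, was at -1.78 ± 0.07 (adjusted p = 7.76e-27) and Cox14, an early assembly factor, at -1.04 ± 0.06 (adjusted p = 5.66e-21), by edgeR. Ndufaf7, a methyltransferase needed for complex I assembly, was higher (0.76 ± 0.10, adjusted p = 2.36e-09). These genes were picked after their values were seen.

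Proliferating cells had a higher share of respiratory transcripts in most classes. Cells with at least 4 of 9 proliferation markers had a member sum above that of cells with none in 7 of 7 libraries in NK cells (median ratio 1.38), conventional CD4 T cells (1.38), regulatory T cells (1.60) and conventional dendritic cells (1.24). In monocytes/macrophages the ratio was 1.04, above 1 in 5 of 7 libraries. Some libraries held as few as 2 such cells in NK and dendritic cells, and 1 to 15 in microglia (ratio 1.73).

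Under PT2385 in monocytes/macrophages the 13 mitochondrially encoded genes lay above 0 in the additive model, with a median of 0.15, 4 at an unadjusted p under 0.05 and 0 called by edgeR. The rise was not particular to PT2385: with ICB all 13 lay above 0 as well, with a median of 0.21. Against the single untreated pool the median was 0.36 for PT2385 alone and 0.41 for ICB alone. Of the 17 glycolytic genes 15 lay above 0 with PT2385 (median 0.27) and 0 with ICB (median -0.20), and edgeR called 0 of them in either comparison, with 10 and 4 at an unadjusted p under 0.05.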
